A study of Mus musculus with 6 samples.

Results

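The genes described here are 10 members of the antioxidant response driven by the transcription factor NRF2: Nfe2l2, which encodes NRF2 itself, and Nqo1, Hmox1, Gclc, Gclm, Txnrd1, Srxn1, Slc7a11, Gsta4 and Gpx2. They were taken by name as a functional group, and their probes were found on the array through the RefSeq accession that the scanner files give for each probe. All 10 had a probe, among 20832 genes that could be named in this way. Together they had 11 probes of the array's 39429, since Hmox1 had 2. RNA came from mammary glands of 6 female mice, labelled Trp-53 knockout, with 1 single-colour Agilent array per mouse. Both groups carried the knockout, and no mouse with intact Trp53 was measured. A high-fat diet (HFD) was fed to 3 mice and a control diet (CD) to 3, from 3 weeks to 8 weeks of age, so that feeding lasted 5 weeks and all mice were 8 weeks old. The source label speaks of glands whereas the description speaks of epithelial cells, so whether epithelium was separated before extraction is not known. The question for these genes was whether the antioxidant response differed between the diets.

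NRF2 is a basic leucine zipper factor that is held in the cytoplasm and degraded through KEAP1, an adaptor of the CUL3 ubiquitin ligase. Oxidants and electrophiles modify KEAP1, NRF2 then accumulates, pairs with a small MAF protein and binds antioxidant response elements in its target genes, where the repressor BACH1 competes with it. NRF2 is controlled mainly as a protein, so the level of its transcript is not a measure of its activity. Its targets make and use glutathione, run the thioredoxin system, reduce quinones and break down heme. Many of them respond to other factors too, such as ATF4 at Slc7a11 and BACH1 at Hmox1.

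Between 27203 and 29412 probes per array lay well above background, the scanner software's test of a spot against its local background, and no probe of a gene was saturated. All 11 member probes were well above background on all 6 arrays. Markers of the labelled tissue were present: all 20 luminal and all 17 basal and myoepithelial markers passed the filter on low signals, which asked for a probe well above background on at least 3 arrays. The arrays did not part by diet alone. On the first principal component, with 47.4% of the variance, the high-fat arrays scored -62.2, -54.7 and 7.65 and the control arrays 0.40, 53.7 and 55.1, each in replicate order, so that 1 array of each diet lay in the middle. These arrays, high-fat replicate 3 and control replicate 1, shared a slide with high-fat replicate 2. The number of arrays limits the precision of every value below.

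Promoter sequences are shown first, because these genes are grouped by a shared control element. RefSeq windows of 250 bases before and 50 bases after the start of transcription (build GRCm38.p6) were found for 7 of the 10 members, with 9 windows in all because Txnrd1 had 3 start sites. Gsta4, Hmox1 and Gclc had no entry. The windows were searched on both strands for the core of the antioxidant response element, TGACNNNGC, and for the site of NRF2 and its relatives with small MAF proteins, TGANTCAGC. The second was added after the letters of the Srxn1 window had been seen, and the 2 motifs overlap in the form that starts TGAC. Of 32851 promoter windows in the mouse table, 12.4% held the core, 1.19% held the second motif and 13.0% held either. Among the member windows, 4 of 9 held a match, 1 each for Nfe2l2, Gclm, Txnrd1 and Srxn1. The 250 bases before the start are printed here for Srxn1, at chr2:152105274-152105523 (plus strand), which holds the second motif 45 bases before the start, and for Gclm, at chr3:122245307-122245556 (plus strand), which holds the core on the opposite strand 134 bases before the start. Those of Gpx2, at chr12:76795555-76795804 (minus strand), and Nqo1, at chr8:107403206-107403455 (minus strand), are shown because these genes had larger diet differences and hold neither motif in their windows. The Slc7a11 window holds neither motif as well and is not printed. Whether the motifs relate to the diet differences was not tested. Matches are in capitals.
Srxn1: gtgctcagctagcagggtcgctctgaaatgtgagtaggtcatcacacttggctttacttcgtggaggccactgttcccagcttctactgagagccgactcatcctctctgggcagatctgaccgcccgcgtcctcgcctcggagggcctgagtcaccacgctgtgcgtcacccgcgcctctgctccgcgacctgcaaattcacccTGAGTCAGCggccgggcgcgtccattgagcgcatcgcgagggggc
Gclm: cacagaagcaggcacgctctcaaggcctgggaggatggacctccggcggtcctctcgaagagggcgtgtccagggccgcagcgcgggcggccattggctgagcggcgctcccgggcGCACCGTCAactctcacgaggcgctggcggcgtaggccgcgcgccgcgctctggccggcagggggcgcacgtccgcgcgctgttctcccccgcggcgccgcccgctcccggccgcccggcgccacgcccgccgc
Gpx2: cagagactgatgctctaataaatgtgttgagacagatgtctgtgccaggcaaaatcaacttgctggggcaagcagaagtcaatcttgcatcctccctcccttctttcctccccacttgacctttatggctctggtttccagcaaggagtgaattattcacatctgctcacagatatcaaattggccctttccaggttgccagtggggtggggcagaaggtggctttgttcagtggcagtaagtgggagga
Nqo1: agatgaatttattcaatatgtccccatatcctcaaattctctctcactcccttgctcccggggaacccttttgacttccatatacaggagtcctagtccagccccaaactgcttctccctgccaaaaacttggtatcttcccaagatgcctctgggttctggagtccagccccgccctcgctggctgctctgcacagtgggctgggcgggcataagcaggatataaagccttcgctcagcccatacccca
The matches in Nfe2l2, at chr2:75704885-75704913 (minus strand), and at the second Txnrd1 start site, at chr10:82859104-82859132 (plus strand), are shown with 10 bases on each side. They lay 240 and 92 bases before their starts.
Nfe2l2: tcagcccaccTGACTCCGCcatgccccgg
Txnrd1: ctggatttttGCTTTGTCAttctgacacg
A further core match in Srxn1 began at base 29 of the transcript. A match is a description of these letters, and its absence says only that they are not in this window.

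Levels below are the log2 of the processed signal over the array's 75th percentile, so that 0 is a signal equal to that percentile. Each difference is the high-fat mean less the control mean over n = 3 mice each, and p-values come from limma fitted to all 28689 probes that passed the filter. Levels of different probes are not comparable with each other. The largest difference among the members was that of Gsta4, which was 8.02-fold higher after the high-fat diet. Nqo1, Gpx2 and Slc7a11 followed, at 2.38-fold, 2.35-fold and 2.18-fold. In Gsta4 and Gpx2 every high-fat array lay above every control array, while in Nqo1 and Slc7a11 the diets overlapped. Hmox1 differed by -0.02 on both of its probes, and Nfe2l2 by -0.24. None of the 11 probes passed an adjusted p of 0.05, a threshold that 0.0174% of all tested probes passed.

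**Figure D1:**
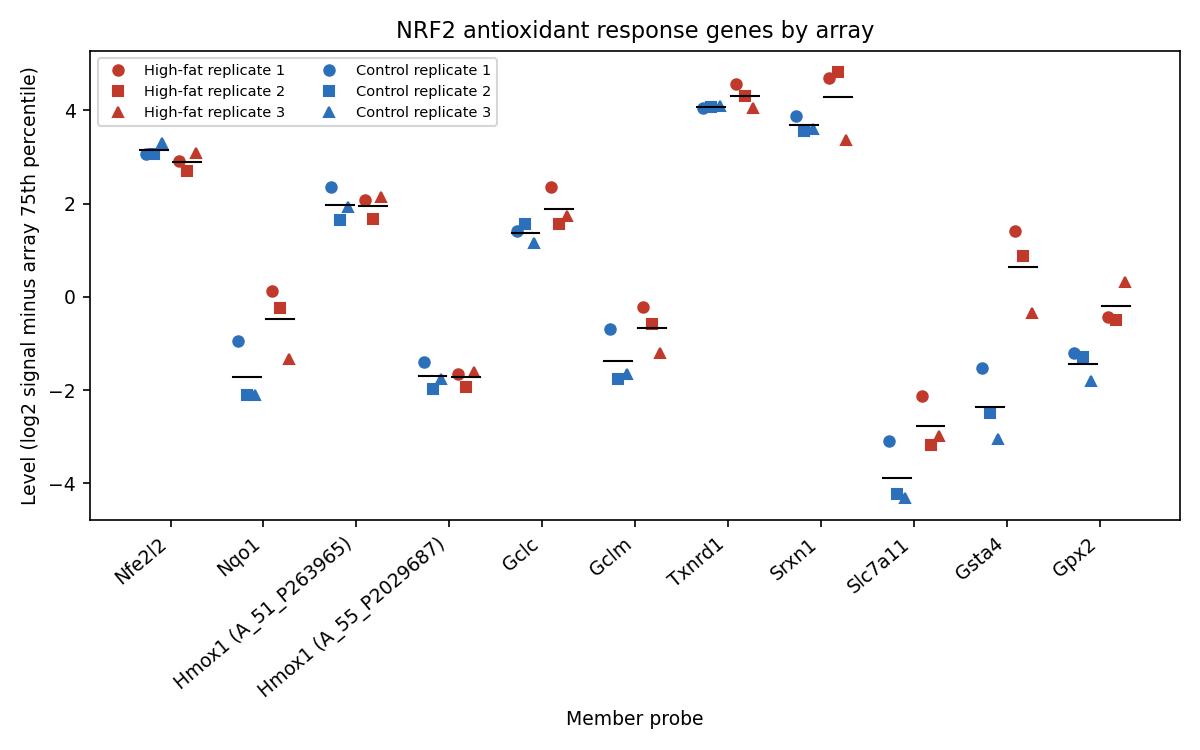
Level of each member probe (log2 of signal over the array's 75th percentile) on the 3 control arrays (blue) and 3 high-fat arrays (red), with symbols for replicates 1 to 3 and a black line at each group's mean. Gsta4, Gpx2 and Gclc are the probes whose diets do not overlap; levels are to be compared within a probe only.

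The transcript of the regulator was measured by 1 probe for Nfe2l2 (NM_010902). Its level was 2.91, 2.70 and 3.08 on high-fat replicates 1 to 3 and 3.06, 3.07 and 3.29 on control replicates 1 to 3. The diets overlapped, with high-fat replicates 1 and 2 below all control arrays and high-fat replicate 3 among them. The means were 2.90 ± 0.19 and 3.14 ± 0.13 (SD, n = 3 each), and the difference of -0.24 had a 95% interval from -0.60 to 0.11 (limma, adjusted p = 0.464).

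Slc7a11, Gclc and Gclm act at the start of glutathione synthesis. Slc7a11 (NM_011990) is the cystine-importing subunit of the cystine-glutamate exchanger. Its level was -2.13, -3.17 and -2.98 on high-fat replicates 1 to 3 and -3.09, -4.23 and -4.32 on control replicates 1 to 3. High-fat replicate 1 stood highest, while control replicate 1 lay at about the level of high-fat replicates 2 and 3. The difference was 1.12 (SE 0.42, 95% interval 0.12 to 2.13), or 2.18-fold (limma, unadjusted p = 0.034, adjusted p = 0.348). This was the dimmest member, with a lowest processed signal of 69.0 intensity units on control replicate 3, where detected probes reached down to 7.02.

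Gclc (NM_010295) is the catalytic subunit of glutamate-cysteine ligase, the rate-limiting enzyme of glutathione synthesis. It stood at 2.35, 1.57 and 1.74 on high-fat replicates 1 to 3 and at 1.42, 1.56 and 1.16 on control replicates 1 to 3. The diets did not overlap, but high-fat replicate 2 and control replicate 2 were almost equal. Gclc differed by 0.51 (SE 0.23, 95% interval -0.06 to 1.07; limma, adjusted p = 0.380). Without high-fat replicate 1 its difference was 0.28. Gclm (NM_008129) is the modifier subunit, which raises the activity of the catalytic one. Its values were -0.21, -0.58 and -1.21 on high-fat replicates 1 to 3 and -0.69, -1.76 and -1.65 on control replicates 1 to 3. Control replicate 1 lay above high-fat replicate 3 and close to high-fat replicate 2. The mean difference was 0.70 (SE 0.37, 95% interval -0.19 to 1.60; limma, adjusted p = 0.417).

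Nqo1 and Hmox1 detoxify quinones and heme. Nqo1 (NM_008706), a quinone reductase that is a standard readout of NRF2, had levels of 0.13, -0.25 and -1.32 on high-fat replicates 1 to 3 and of -0.95, -2.11 and -2.11 on control replicates 1 to 3. High-fat replicate 3 lay below control replicate 1, so the diets overlapped by that pair of arrays. Its means were -0.48 ± 0.76 and -1.73 ± 0.67 (SD, n = 3 each), a 2.38-fold difference on the linear scale (log2 1.25, SE 0.47, 95% interval 0.11 to 2.39; limma, unadjusted p = 0.037, adjusted p = 0.350). Hmox1 (NM_010442) is heme oxygenase, which breaks heme down to biliverdin, iron and carbon monoxide and is made in large amounts by macrophages that clear red cells. On its brighter probe the level was 2.07, 1.66 and 2.14 on high-fat replicates 1 to 3 and 2.36, 1.66 and 1.93 on control replicates 1 to 3. The diets were interleaved. The second, dimmer probe gave -1.64, -1.93 and -1.61 against -1.39, -1.97 and -1.75. Both probes put control replicate 1 highest, and their 95% intervals ran from -0.57 to 0.53 and from -0.48 to 0.43 (limma, adjusted p = 0.969 and adjusted p = 0.959). Of the macrophage markers, 12 of 15 were tested. Their summed signal relative to the 75th percentile ran from 10.6 to 16.0 under high-fat and from 13.6 to 14.5 under control diet. Among the untested markers, Cd163, a scavenger receptor, was not well above background on any of the 6 arrays. What macrophages contribute to the Hmox1 signal was not tested.

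Txnrd1 and Srxn1 serve the thioredoxin system. Txnrd1 (NM_001042523), the cytosolic thioredoxin reductase, is a selenoprotein that passes electrons from NADPH to thioredoxin. It stood at 4.57, 4.31 and 4.04 on high-fat replicates 1 to 3 and at 4.06, 4.06 and 4.09 on control replicates 1 to 3. The control arrays spanned 0.03 on the log2 scale, the narrowest range of any member in either diet, and high-fat replicate 3 lay just below them. The difference was 0.24 (95% interval -0.15 to 0.63; limma, adjusted p = 0.501). Srxn1 (NM_029688), sulfiredoxin, repairs overoxidised peroxiredoxins. Its levels were 4.69, 4.82 and 3.37 on high-fat replicates 1 to 3 and 3.89, 3.55 and 3.61 on control replicates 1 to 3. High-fat replicates 1 and 2 stood above all control arrays and high-fat replicate 3 below all of them. Their mean difference of 0.61 had a 95% interval from -0.33 to 1.56 (limma, adjusted p = 0.486) and was 1.07 without high-fat replicate 3.

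Gsta4 and Gpx2 use glutathione. Gsta4 (NM_010357) is the alpha-class glutathione transferase that conjugates hydroxynonenal and related aldehydes from oxidised lipids. It had levels of 1.40, 0.88 and -0.35 on high-fat replicates 1 to 3 and of -1.52, -2.50 and -3.06 on control replicates 1 to 3. Every high-fat array lay above every control array, and the nearest pair, high-fat replicate 3 and control replicate 1, stood 1.17 apart. In processed signal this was 5220, 3024 and 1248 intensity units against 637, 235 and 166. The means were 0.64 ± 0.90 and -2.36 ± 0.78 (SD, n = 3 each), a difference of 3.00 (SE 0.55, 95% interval 1.66 to 4.34), which was the 206th smallest p of the 28689 probes (limma, unadjusted p = 0.0014, adjusted p = 0.187). The Gsta4 probe was printed 10 times on each array, and these spots share 1 labelling and hybridisation. They had an SD of 0.025 to 0.105 on the log2 scale, with 9 spots used on high-fat replicate 3 and 10 on the others. This covers noise between spots only, not that of labelling, hybridisation or mice.

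Gpx2 (NM_030677), a glutathione peroxidase best known from gastrointestinal and other epithelia, had levels of -0.43, -0.49 and 0.32 on high-fat replicates 1 to 3 and of -1.21, -1.29 and -1.80 on control replicates 1 to 3. Every high-fat array was above every control array, with high-fat replicate 3 highest, unlike in Gsta4 and Nqo1, where it was the lowest of its diet. The means were -0.20 ± 0.45 and -1.43 ± 0.32 (SD, n = 3 each), and the difference was 1.23 (SE 0.28, 95% interval 0.57 to 1.90; limma, unadjusted p = 0.0037, adjusted p = 0.228), the 462nd smallest p.

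At an unadjusted p under 0.05, 4 of the 11 member probes were higher after the high-fat diet (Gsta4, Gpx2, Slc7a11 and Nqo1) and 0 lower, where 6.77% of all tested probes were higher and 6.99% lower at that threshold. The diets did not overlap in 3 of 11 member probes (Gsta4, Gpx2 and Gclc), all higher after the high-fat diet. That held for 17.5% of all tested probes, 9.25% as higher and 8.22% as lower. The median difference of the 11 member probes was 0.61, beside 0.01 for all probes, and 8 of the 11 were positive. These values are descriptive, since the members were chosen with earlier results of these data known. The count of 4 became 2 without high-fat replicate 1, without control replicate 2 and without control replicate 3, and 6 without high-fat replicate 3. The share of all tested probes at that threshold moved with it, from 13.8% to 7.15%, 8.79% and 5.97% in the first 3 settings and to 21.1% in the last.

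The arrays lay on 3 slides, each scanned at its own time. High-fat replicate 1 was the only array of its slide, and control replicates 2 and 3 shared another. For these arrays diet and slide cannot be told apart. The remaining slide held both diets, with high-fat replicates 2 and 3 and control replicate 1. Within that slide Gsta4 differed by 1.79 and Gpx2 by 1.12. Each was higher on both high-fat arrays of the slide, Gsta4 by 2.41 and 1.17 and Gpx2 by 0.71 and 1.53 on high-fat replicates 2 and 3. Only 1 control array stands behind this, and the share of all probes higher on both is not given. It therefore does not show a pattern particular to these genes on this slide. The other members had smaller differences there. Nqo1 differed by 0.17 on average, from 0.71 on high-fat replicate 2 to -0.37 on high-fat replicate 3. Slc7a11 differed by 0.02, Gclc by 0.23, Srxn1 by 0.21, Txnrd1 by 0.12 and Nfe2l2 by -0.17. Gclm was lower there, by -0.20, opposite to its difference over all arrays, and the Hmox1 probes differed by -0.46 and -0.38. With slide as a block in the fit, the mixed slide alone gives the estimate. There 1 of 11 member probes, Gsta4, had an unadjusted p under 0.05 in limma, beside 5.18% of all tested probes. Its adjusted p was 0.940.

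**Figure D2:**
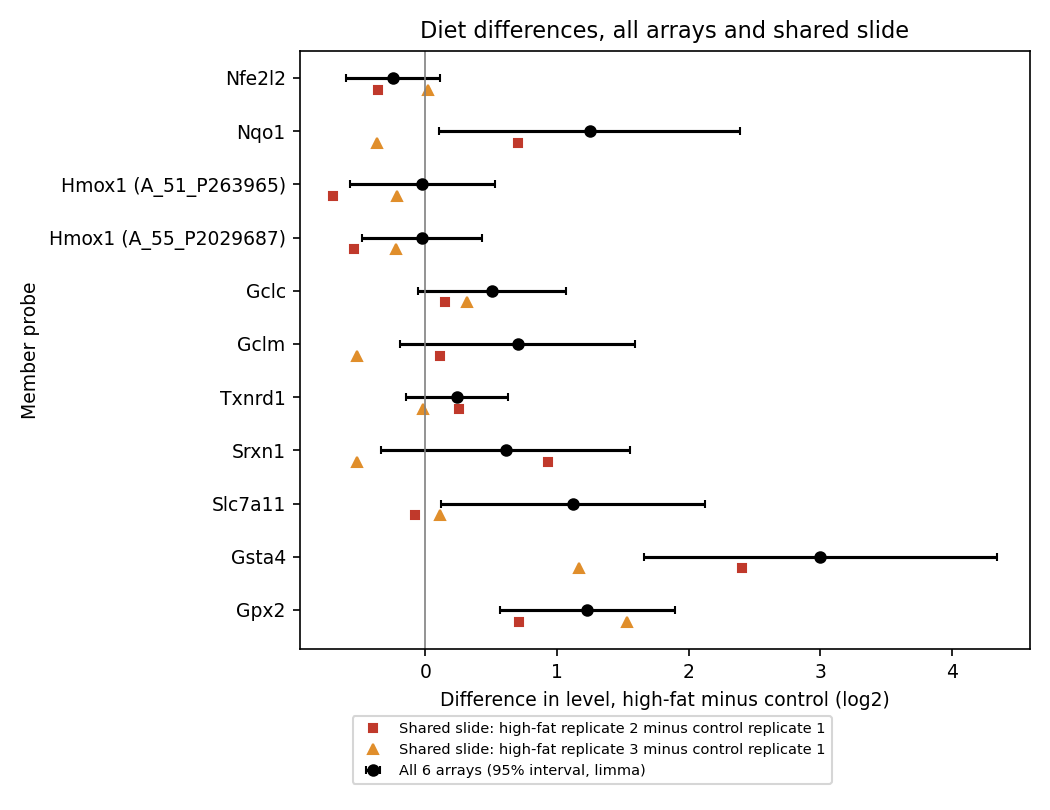
Difference in level of each member probe, high-fat minus control on the log2 scale, over all 6 arrays (black, with the 95% interval from limma) and within the shared slide for high-fat replicate 2 (red squares) and high-fat replicate 3 (orange triangles), each against control replicate 1. Gsta4, Gpx2 and Gclc lie above 0 in all 3 estimates, which share arrays, and the share of all probes that do so is not given.

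Within each diet the arrays differed in how high the members stood. High-fat replicate 1 had the highest level of its diet in 6 of 11 member probes and the lowest in 0. Control replicate 1 had the highest of its diet in 8 of 11, both Hmox1 probes among them. The same counts over all probes are not given, so they do not show a pattern particular to the members. High-fat replicate 3 was the lowest of its diet in 5 probes, those of Nqo1, Gclm, Txnrd1, Srxn1 and Gsta4. The mean level of the 10 genes was 1.54, 1.15 and 0.88 on high-fat replicates 1 to 3 and 0.73, 0.20 and 0.11 on control replicates 1 to 3. Luminal epithelial markers, all 20 of 20 tested, had mean levels of 1.27, 1.48 and 0.50 against 0.95, 0.25 and 0.38, and their summed signal relative to the 75th percentile ran from 276 to 525 under high-fat and from 232 to 336 under control diet. Basal and myoepithelial markers, 17 of 17 tested, had mean levels of 2.61, 2.53 and 2.86 against 1.71, 2.12 and 1.69 and summed signals of 353 to 449 against 189 to 279. Fibroblast and matrix markers, 15 of 15 tested, ran the other way, with mean levels of 1.73, 1.72 and 2.94 against 2.40, 3.09 and 3.13 and summed signals of 208 to 537 against 436 to 750. None of the markers in these lists lacked a probe well above background in either diet. By mean level, high-fat replicate 3 and control replicate 1 were the arrays closest to the other diet in the luminal and fibroblast lists. They were so in Nqo1, Gclm and Gsta4 too. In Slc7a11, Gpx2 and Gclc, by contrast, high-fat replicate 2 was the high-fat array closest to the control diet. In Gclc and in the basal list the closest arrays were replicate 2 of each diet. High-fat replicate 3 and control replicate 1 lay on the slide that held both diets, together with high-fat replicate 2. By summed luminal signal the control array closest to the high-fat arrays was replicate 2, at 336, with replicate 1 at 270.0. Of the other lists, skeletal muscle markers (13 of 15 tested) summed to 4.03 to 5.44 under high-fat and 7.46 to 12.1 under control diet. These sums did not overlap, but they include Casq1, which passed the filter through the control arrays alone. It was well above background on 3 control arrays and 0 high-fat arrays. The adipocyte, endothelial, lymphocyte, erythroid and keratinocyte sums overlapped between the diets, at 8.76 to 13.6 against 10.3 to 13.1, 13.8 to 25.9 against 14.1 to 24.1, 5.04 to 5.92 against 4.78 to 5.87, 0.15 to 0.18 against 0.14 to 0.16 and 4.05 to 5.47 against 2.54 to 4.75. The part of these markers in the members' differences was not tested, and in RNA from a gland fewer cells of a type and less RNA per cell cannot be told apart.

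**Figure D3:**
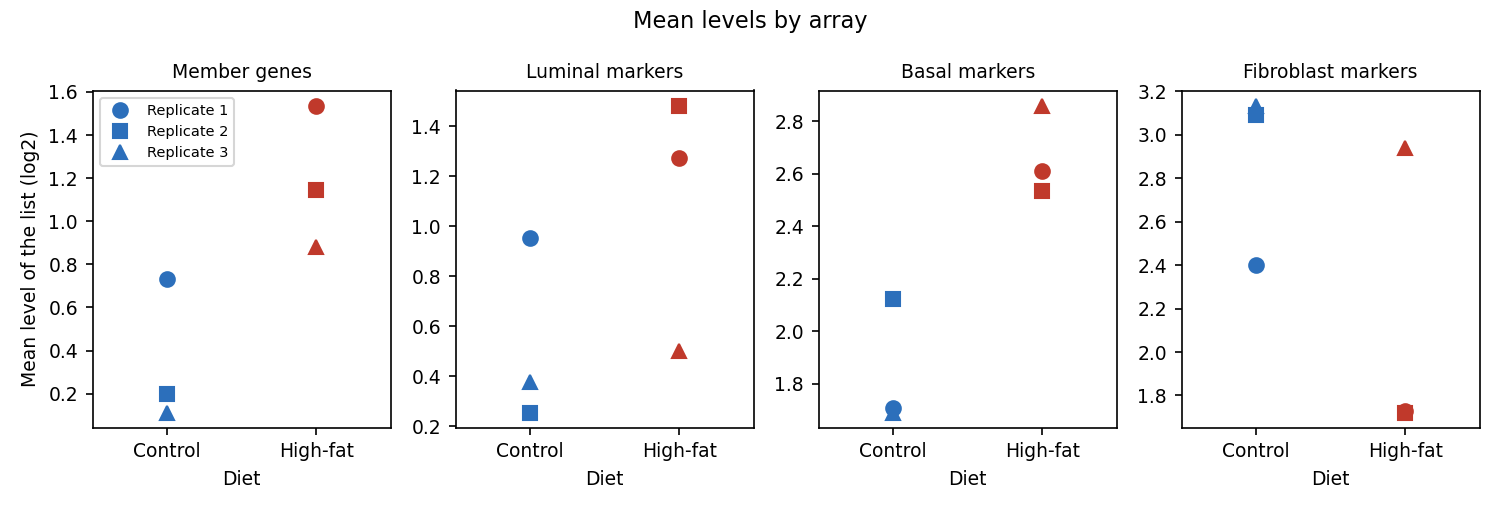
Mean level (log2) of the 10 member genes and of the luminal, basal and fibroblast marker lists on each array, control in blue and high-fat in red, with symbols for replicates 1 to 3 and a separate vertical scale in each panel. Control replicate 1 and high-fat replicate 3 are the closest pair across the diets in the member panel, at 0.73 and 0.88.

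The rest of the pathway was described by 7 gene lists. Of their 148 tested genes, 0 passed an adjusted p of 0.05 in limma (0.0244% of all 16391 named genes did), the lowest adjusted p being 0.217. Taking an unadjusted p under 0.05, 10 were higher and 14 lower, or 16.2%, beside 14.0% of all genes, with 6.16% higher and 7.85% lower. By list that share ran from 0% for NADPH supply to 35.5% for the other NRF2 target genes. The median difference of the 148 genes was -0.05, beside -0.01 for all genes and 0.66 for the 10 members taken with 1 probe each.

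Among 19 regulators and partners of NRF2, 2 were higher and 0 lower at this threshold. Nfe2l3, a related factor, differed by 1.15 (SE 0.34) and Cul3, the scaffold of the ubiquitin ligase that degrades NRF2, by 0.49 (SE 0.20). Keap1 differed by 0.17 (SE 0.13), Bach1 by -0.12 (SE 0.18), and the small Maf genes Maff, Mafk and Mafg by 0.20, 0.04 and 0.0021, with 0.09 and 0.10 on the dimmer Mafg probes. Adjusted p for these genes ran from 0.301 for Nfe2l3 to 0.995 for Mafg (limma).

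Other NRF2 target genes went both ways, with 5 higher and 6 lower of 31 at an unadjusted p under 0.05 and a median of -0.05. That was 35.5% of a list chosen with earlier results of these data known, beside 14.0% of all genes. Gsta2, another alpha-class glutathione transferase, came closest in size and pattern to Gsta4. Its level was 1.77, 1.01 and -0.93 on high-fat replicates 1 to 3 and -2.13, -2.76 and -3.44 on control replicates 1 to 3. The diets did not overlap, and the difference was 3.39 (SE 0.71; limma, adjusted p = 0.217). Gsta3, which is outside the rule for named genes and was added after its values were seen, differed by 2.16 and 1.97 on its 2 probes (limma, adjusted p = 0.346 and adjusted p = 0.315). Most other glutathione transferases of this list, also outside that rule, were lower. Gstm1, Gstm2, Gstm3 and Gstm4 differed by -0.37, -1.15, -0.46 and -0.33, Mgst1 by -0.32 and Gstp1 by 0.02. Alpha-class transferases are similar in sequence, and whether their probes read each other's transcripts was not tested. Osgin1, an oxidative stress induced growth inhibitor, differed by 0.61 (SE 0.17) and Akr1c13, an aldo-keto reductase, by 0.39 (SE 0.14), both with diets that did not overlap. Ugt1a6b, a glucuronosyltransferase whose transcript shares exons with others of its locus, differed by -0.73 (SE 0.25).

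Glutathione synthesis, peroxidases and breakdown had 1 gene higher and 2 lower of 25. Ggt1, which breaks down glutathione outside the cell, differed by 1.53 (SE 0.49), with 1 of its high-fat arrays, replicate 2, at -4.35 and the control arrays between -5.09 and -4.55. Gsto1, an omega-class transferase, differed by -0.65 (SE 0.14) and Oplah, which recycles oxoproline from glutathione, by -0.66 (SE 0.26). Gsr, which regenerates glutathione from its oxidised form, differed by 0.66 (SE 0.33). In the list of thioredoxins, peroxiredoxins, superoxide dismutases and catalase, 1 gene was higher and 2 lower of 20. Prdx1, a peroxiredoxin that is itself an NRF2 target, differed by 0.59 (SE 0.19) and by 0.63 on its dimmer probe. Sod2, the mitochondrial superoxide dismutase, differed by -0.99 (SE 0.26), from control levels of 5.69 to 6.43 to high-fat levels of 4.90 to 5.53. Txnip, an inhibitor of thioredoxin, differed by -0.67 (SE 0.24) and by -0.24 on its dimmer probe. The NADPH-supplying enzymes had 0 of 9 genes at that threshold. Among them Pgls, Taldo1 and Pgd, enzymes of the pentose phosphate pathway, differed by -0.30, 0.32 and 0.22, and the mitochondrial isocitrate dehydrogenase Idh2 by -0.23. The median of that list was -0.05.

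The ATF4 list, which shares Slc7a11 as a target, had 0 genes higher and 1 lower of 24, with Cebpb at -0.48 (SE 0.15) and a median of -0.14. Heme and iron genes had 1 higher and 3 lower of 20, beside the Hmox1 difference of -0.02. Ireb2, an iron regulatory protein, differed by 0.81 (SE 0.29). Hpx, the heme-binding hemopexin, differed by -0.60 (SE 0.17), Lrp1, its receptor, by -0.90 (SE 0.31), and Hp, haptoglobin, by -1.74 (SE 0.67). Adjusted p in limma for the genes named in these 6 lists was 0.217 or more.

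**Figure D4:**
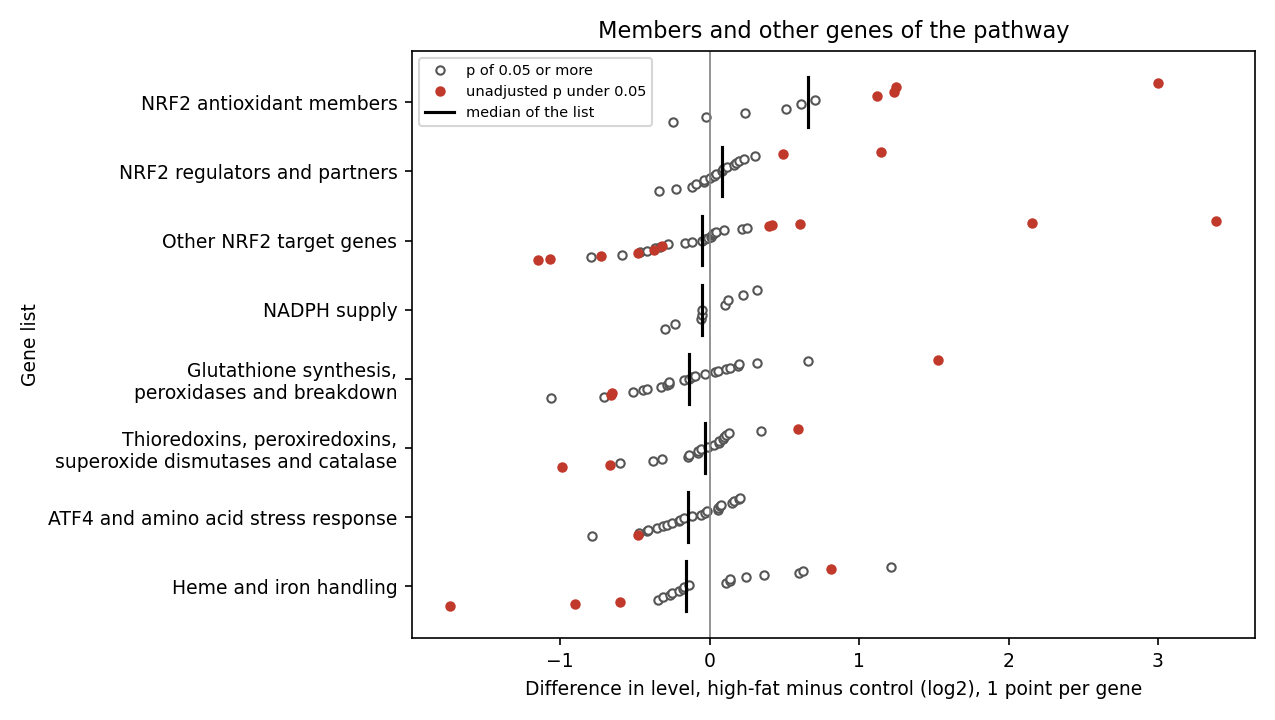
Difference in level, high-fat minus control (log2), for each tested gene of the member list and of 7 other lists of the pathway, 1 point per gene (its probe with the highest mean level), filled red at an unadjusted p under 0.05, with a black line at each list's median. The member median is 0.66 and the medians of the other lists lie between -0.16 and 0.08.

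The genes whose levels ran most like Gsta4 over the 6 arrays, of 16390 compared, were Gtf2f2, Nacc2, Usp43, Igsf9 and St6gal1, with Pearson correlations of 0.998, 0.997, 0.995, 0.994 and 0.994. For Nfe2l2 they were Adar, Rnase2a, Pla2r1, Rgs17 and Cxcl14, at 0.995, 0.990, 0.990, 0.987 and 0.983. These are the highest values of a search over all genes on 6 arrays that include the diet difference, and no p is attached to them. None of the member genes was among either group of 5.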

How the data were processed

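Per the file headers and the submitters' processing notes, Agilent Feature Extraction 11.0.1.1 made the scanner files. As deposited they hold intensity on a linear scale: a processed signal, background-subtracted within the array, beside the medians of spot and local background. The authors' table of 30608 probes holds linear intensity too; 99.9% of each column (rounded) was the processed signal times 1 constant (tolerance 1%), close to 1 over the array's 75th percentile, and column medians were 0.134 to 0.140. Groups and replicate numbers follow the titles.

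Control spots and spots marked as outliers were left out, spots of a probe were averaged, and 111 probes lacking such a spot on some array were removed. Levels are log2 of the processed signal over the array's 75th percentile, which ran from 1326 to 1973 intensity units. Probes well above background on at least 3 arrays (28689) were fitted with limma 3.58.1 in R 4.3.3 (lmFit, eBayes, two-sided, Benjamini-Hochberg over all probes, threshold 0.05, no covariates). Each member probe was reported by itself; other genes were represented by the probe with the highest mean. An exact permutation test of 3 against 3 has a smallest p of 0.1. The labels call the samples biological replicates. Of the 39429 probes, 27427 matched 1 symbol through RefSeq accessions. The array was annotated on mouse build mm9, so gene coordinates are not given, and promoter windows are RefSeq's own. The fit was also run on simulated data with 200 changed probes, and the outcome is not given here. Named genes were all members, Keap1, Bach1 and the small Mafs, up to 4 genes of smallest p per list, and the 5 genes most correlated with Nfe2l2 and with the member of smallest p. The members, lists and tests were chosen with earlier results of these data known. Marker lists of other cell types were summed per array.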

Additional observations from a re-analysis of the deposited data

How the results depend on the processing

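Of 19 alternatives, 18 left 0 member probes past an adjusted p of 0.05. With limma's array weights 6 passed (Nqo1, Gclm, Srxn1, Slc7a11, Gsta4 and Gpx2) and 8 had an unadjusted p under 0.05 (42.3% of all probes did, against 13.8% in the reported fit), with 39 pathway genes past the test. That setting called 6847 of all 28689 probes, and it gave high-fat replicate 3 and control replicate 1 weights of 0.42 and 0.34 and control replicate 3 a weight of 4.11. With slide as a block 1 member probe had an unadjusted p under 0.05, beside 5.18% of all probes. Leaving out 1 array at a time gave 2 to 6 member probes at that threshold (5.97% to 24.0% of all probes), 3 to 8 whose diets did not overlap, and 0 to 1 pathway genes past the test. Leaving out high-fat replicate 3 gave the 8, where 42.6% of all probes did not overlap, and the 1, which was Gsta2 (difference 4.17, adjusted p = 0.049 in limma). Leaving out control replicate 1 gave 6 that did not overlap, beside 47.6% of all probes. Over all probes the count past the test was 5 in the reported fit. It ranged from 0 to 122 in the alternatives other than array weights, which called 6847.

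Gsta4 kept its direction and an unadjusted p under 0.05 in all 19 alternatives, with differences of 1.79 to 3.74 and adjusted p from 0.023 to 0.940, and Gpx2 in 19 and 18 of them, with 0.97 to 1.38 and adjusted p from 0.027 to 0.989. Hmox1 changed sign on its brighter probe with median scaling (0.0011) and on its dimmer probe with normexp and the 75th percentile (0.22), a setting in which the median of all probes moved to 0.31. Without 1 array its brighter probe ran from -0.18 to 0.17 and its dimmer probe from -0.16 to 0.13. Gclm was -0.20 with slide as a block. Relative to the shifted median, Txnrd1 was -0.18 under normexp. The cause of these changes was not tested. With the replicate number as a block, 0 member probes passed and 5 had an unadjusted p under 0.05, beside 18.1% of all probes. Whether the numbers pair the mice is not known. Deviations of same-numbered arrays from their diet means correlated at 0.34, -0.14 and 0.25, and those of differently numbered arrays at -0.38 to 0.24. These few correlations cannot decide it.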

Other observations

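Gsta3, an alpha-class transferase that is no member, was read by 2 probes. On the brighter probe the level was -0.03, -1.30 and -3.12 on high-fat replicates 1 to 3 and -2.86, -3.87 and -4.18 on control replicates 1 to 3, so high-fat replicate 3 lay below control replicate 1. On the dimmer probe it was -1.06, -2.31 and -3.49 against -3.62, -4.49 and -4.67. The haptoglobin gene Hp varied more among the control mice than among the high-fat mice, at 0.13, -2.60 and -0.44 on control replicates 1 to 3 against -2.90, -2.58 and -2.64 on high-fat replicates 1 to 3.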
